A study of Mus musculus with 18 samples.

Results

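Integrins and laminins, the receptors and one of the main ligand families of cell adhesion to the basement membrane, were followed in 37 mouse genes: 18 integrin α subunits, 8 integrin β subunits and 5 α, 3 β and 3 γ chains of laminin. These are the protein-coding genes whose symbols follow the naming scheme of either family, out of 55335 gene identifiers in the counts. The cells were O9-1, a multipotent neural crest (NC) line from the mouse embryonic head, genetically wildtype and kept under osteogenic induction. Cells of 3 groups were compared at d2.5 and again at d5 of induction. Ctrl+vehicle cells received a control siRNA and no FGF2, Ctrl+FGF2 cells the control siRNA and the growth factor FGF2, and Y/T dKD+FGF2 cells siRNA against both Yap and Taz together with FGF2. There were 3 libraries of each group on each day (18 in all), and a knockdown without FGF2 was not among them. All libraries come from 1 cell line, and the labels do not say whether replicates were separate cultures, so the tests measure the spread between libraries, which may be partly technical. The labels give each day its own batch, so day and batch cannot be told apart and groups were compared within a day.

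Bulk poly(A) RNA-seq gave between 10377151 and 14698525 counts on genes per library (median 12330911). Levels are given in CPM (counts relative to library size, after TMM scaling), with the value of each of the 3 libraries or as group means. In bulk RNA, fewer cells of a type and less RNA per cell cannot be told apart. The siRNA targets were reduced but not lost: Yap1 was at 51.5% of its Ctrl+FGF2 level at d2.5 and 46.0% at d5, and Wwtr1, which encodes Taz, at 60.8% and 57.5%. Against Ctrl+vehicle, Wwtr1 in the knockdown was at 95.6% at d2.5 and 53.9% at d5. Markers of NC and cranial mesenchyme (12 genes) summed to between 1554 and 2582 CPM, but the defining NC markers Foxd3 and Sox10 were at 0 in every group. Osteoblast markers (7 genes, all detected) summed to between 9146 and 34503 CPM. The sum, mostly Col1a1 and Spp1, was lower in Ctrl+FGF2 than in the other groups on each day, but single markers differed. With FGF2, Col1a1, Alpl and Ibsp fell on both days, Runx2 and Sp7 at d2.5 and Bglap at d5. Spp1 rose on both days, and Runx2 and Sp7 rose at d5. With the knockdown at d2.5, Col1a1 fell from a mean of 2201 to 2007 CPM, while Spp1 rose from 6909 to 8757 CPM and Sp7 and Ibsp also rose. At d5 all 7 markers rose with the knockdown, from 1.11-fold for Runx2 to 4.96-fold for Ibsp. The part of this cell state in the results below was not tested.

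Every integrin is a pair of 1 α and 1 β subunit that spans the membrane and links matrix outside to actin inside. The β1 subunit pairs with most α subunits, and the α partner decides the ligand: collagens (α1, α2, α10, α11), laminins (α3, α6, α7) or fibronectin and related proteins (α4, α5, α8, α9, αv). A laminin is a trimer of an α, a β and a γ chain, and its α chain carries most of the integrin binding, so α5 laminins, for example, are strong ligands of α6β1 and α3β1 whereas α4 laminins bind them more weakly.

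Promoter sequence is shown for the members that hold the core motif of the TEAD factors, which carry Yap and Taz to DNA. It is also shown for Itga3, whose level moved with both FGF2 and the knockdown on both days. Itga3 was chosen after its values were seen and holds a match to the AP-1 motif as searched here. RefSeq promoters (GRCm38.p6, 300 bases, from 250 before to 50 after a start site) matched 23 of the 37 members in 26 windows. The TEAD core GGAATG, searched on both strands, lay in 3 of the 26 windows and in 4817 of all 32851 windows. The AP-1 motif was searched in a loose form, TGANTCA, with any base at its centre. This form lay in 3 of 26, against 7.81% of all windows. Each line below holds 30 bases on the strand of the gene, 5′ to 3′, with the motif in capitals.
Itgb1, TEAD (chr8:128685635-128685664, plus strand): acgcggcgcggaGGAATGcgtttccggagg
Itga10, TEAD (chr3:96645497-96645526, plus strand): caccaccactccCATTCCatccaactttat
Lamb3, TEAD (chr1:193302064-193302093, plus strand): gaggggaccccaCATTCCcagggagctctc
Itga3, AP-1 (chr11:95069168-95069197, minus strand): gggctggtgccTGAATCActggcttgctca
The Itga3 window belongs to the inner one of its 2 RefSeq start sites. Itga9 and Itgax held the other AP-1 matches, TGACTCA and TGAGTCA, whereas that of Itga3 was TGAATCA. Of the other motifs searched, the Sp1 motif GGGCGG lay in 12 of 26 windows (35.7% of all), the CArG box in 2 (1.63% of all) and the ETS motif CCGGAAGT in 0 (3.89% of all). A match is a description of the letters and no evidence of binding.

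Of the 37 members, 28 had enough counts to be tested (19 integrins and 9 laminins), and 9 stayed near or at 0. FGF2 moved most of the 28 at d2.5: 11 rose and 14 fell, where 33.5% and 34.1% of all 13677 genes tested did. A change of at least 1.5-fold was called for 18 of the 28, against 29.5% of all genes, and the median absolute log2 fold change was 1.39 over the members and 0.35 over all genes. The signed medians were -0.15 and 0.00. Split by family, 7 integrins rose and 10 fell, and 4 laminins rose and 4 fell. At d5, 11 members rose and 11 fell with FGF2, against 23.5% and 23.7% of 13304 genes, and 11 changed at least 1.5-fold, against 13% of all genes. Median absolute log2 fold changes at d5 were 0.43 and 0.22.

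The knockdown under FGF2 moved fewer members. At d2.5, 8 rose and 6 fell relative to Ctrl+FGF2 (10.8% and 13.6% of all genes), and 5 changed at least 1.5-fold (2.02% of all genes). At d5, 6 rose and 7 fell (15.6% and 16.1%), with 6 of at least 1.5-fold (8.11%). Relative to Ctrl+vehicle, Y/T dKD+FGF2 cells had 13 members higher and 12 lower at d2.5 (34.1% and 35.7% of all genes), 17 of them by at least 1.5-fold (31.5%). At d5 there were 10 higher and 11 lower (20.7% and 21.1%), 9 of them by at least 1.5-fold (11%). The comparisons share libraries, so they are not independent of each other, and a chance low or high Ctrl+FGF2 value alone gives FGF2 and knockdown effects of opposite sign.

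**Figure D1:**
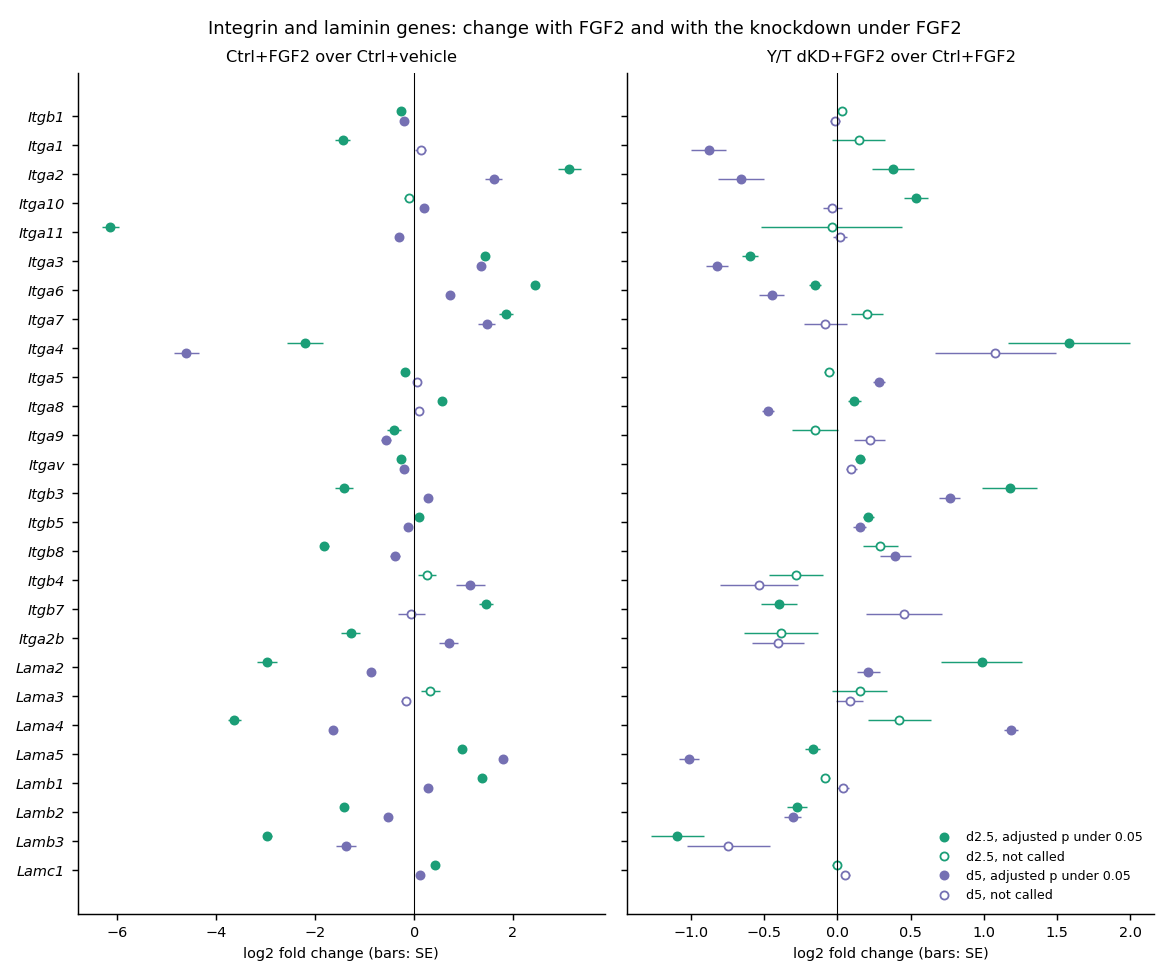
Log2 fold change of the tested members reported here with FGF2 (left) and with the knockdown under FGF2 (right), at d2.5 (green) and d5 (purple), with SE bars; filled points have an adjusted p under 0.05. Itga11, at -6.14, had the largest FGF2 effect of the members at d2.5, and Itga4, at -4.60, at d5, while the largest knockdown effect was 1.59, that of Itga4 at d2.5.

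Integrin β1 was the most abundant integrin subunit per length of mRNA in every group. Itgb1 was at 1409, 1399 and 1419 CPM in the d2.5 Ctrl+vehicle libraries, 1169, 1177 and 1186 CPM in Ctrl+FGF2 and 1233, 1186 and 1221 CPM in Y/T dKD+FGF2. At d5 the means were 2181 ± 34.2, 1863 ± 75.0 and 1852 ± 19.8 CPM (SD, n = 3). It fell slightly with FGF2 on both days, 1.21-fold (adjusted p = 2.69e-10) and 1.16-fold (adjusted p = 7.34e-05), and the groups did not overlap. The knockdown effect was not called on either day, with a log2 fold change of 0.03 ± 0.03 (SE) at d2.5 and -0.01 ± 0.04 at d5.

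The collagen-binding partners did not move together. Itga11, the receptor subunit for fibrillar collagen in mesenchyme, was at 38.0, 31.3 and 35.7 CPM in d2.5 Ctrl+vehicle, 0.63, 0.51 and 0.33 CPM in Ctrl+FGF2 and 0.41, 0.23 and 0.79 CPM in Y/T dKD+FGF2. Ctrl+vehicle thus stood far above both FGF2-treated groups, which overlapped each other and rest on 21 and 18 counts in all. The fall with FGF2 was 70.7-fold (log2 fold change -6.14 ± 0.17, adjusted p = 5.26e-24). At d5 Itga11 was at 296, 314 and 309 CPM in Ctrl+vehicle, 232, 258 and 251 CPM in Ctrl+FGF2 and 235, 264 and 255 CPM in Y/T dKD+FGF2. There the fall with FGF2 was 1.23-fold (adjusted p = 4.17e-05), and the knockdown effect was not called on either day. The FGF2 effect differed between the days by 5.82 ± 0.19 log2 units (adjusted p = 8.96e-21).

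Itga2, a collagen receptor subunit of epithelial cells and platelets, went the other way. It was at 0.76, 0.58 and 0.46 CPM in d2.5 Ctrl+vehicle, 4.71, 6.47 and 5.14 CPM in Ctrl+FGF2 and 7.61, 6.22 and 7.57 CPM in Y/T dKD+FGF2. At d5 its libraries were at 2.41, 2.997 and 2.24 CPM, 6.89, 8.87 and 7.45 CPM, and 4.08, 5.40 and 5.39 CPM in the same order. FGF2 raised Itga2 8.79-fold at d2.5 (adjusted p = 5.05e-13) and 3.05-fold at d5 (adjusted p = 9.83e-07), with no overlap. The knockdown lowered it 1.58-fold at d5 (adjusted p = 0.00337). Its rise of 1.30-fold at d2.5 (adjusted p = 0.0493) was lost without replicate 1 or 3 of either group (adjusted p up to 0.214), and the knockdown effects of the 2 days differed by -1.04 ± 0.21 log2 units (adjusted p = 0.000526).

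Itga1, which binds collagen IV as well as fibrillar collagen, was at 7.59, 7.93 and 7.10 CPM in d2.5 Ctrl+vehicle, 3.10, 2.76 and 2.54 CPM in Ctrl+FGF2 and 2.98, 3.42 and 2.92 CPM in Y/T dKD+FGF2. It fell 2.72-fold with FGF2 (adjusted p = 3.35e-10). At d5 the libraries were at 27.9, 19.1 and 20 CPM in Ctrl+vehicle, 25.1, 22.9 and 24.5 CPM in Ctrl+FGF2 and 13.8, 12.3 and 13.4 CPM in Y/T dKD+FGF2. The d5 Ctrl+vehicle and Ctrl+FGF2 libraries overlapped (adjusted p = 0.355), whereas every knockdown library was below both, 1.84-fold under Ctrl+FGF2 (adjusted p = 2.37e-05). Itga10, a subunit typical of cartilage, rose 1.45-fold with the knockdown at d2.5, from 26.8 ± 1.21 to 39.3 ± 1.44 CPM (adjusted p = 1.37e-05), and its group means at d5 were between 190 and 217 CPM. Exons of Itga1 and Itga10 overlap an unnamed gene model on the same strand, so part of their reads may not have been counted.

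The laminin-binding partners rose with FGF2. Itga6, which with β1 or β4 binds laminin most broadly, was at 51.6, 63.2 and 51.9 CPM in d2.5 Ctrl+vehicle, 311, 302 and 301 CPM in Ctrl+FGF2 and 282, 271 and 274 CPM in Y/T dKD+FGF2. The 3 groups did not overlap. FGF2 raised it 5.42-fold (log2 fold change 2.44 ± 0.05, adjusted p = 1.15e-27), and the knockdown lowered it 1.11-fold (adjusted p = 0.00735). At d5 all levels were lower, at 14.5, 16.2 and 14.3 CPM in Ctrl+vehicle, 26.4, 23.6 and 23.5 CPM in Ctrl+FGF2 and 17.6, 19.0 and 17.3 CPM in Y/T dKD+FGF2. The rise was then 1.65-fold (adjusted p = 2.09e-06) and the fall with the knockdown 1.37-fold (adjusted p = 0.000389), again without overlap. The FGF2 effect differed between the days by -1.74 ± 0.11 log2 units (adjusted p = 2.79e-14).

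Itga3, the other main laminin receptor subunit, was at 39.7, 33.3 and 39.5 CPM in d2.5 Ctrl+vehicle, 101, 98.8 and 103 CPM in Ctrl+FGF2 and 67.1, 72.3 and 62.4 CPM in Y/T dKD+FGF2. The d5 libraries were at 15.9, 15.4 and 14.5 CPM, 36.7, 37.5 and 42.2 CPM, and 23.5, 20.3 and 22.3 CPM. On both days the knockdown libraries lay between the other groups without overlap. FGF2 raised Itga3 2.68-fold at d2.5 (adjusted p = 5.24e-20) and 2.56-fold at d5 (adjusted p = 5.82e-10). The knockdown lowered it 1.51-fold (adjusted p = 9.11e-10) and 1.77-fold (adjusted p = 2.39e-07), and no difference between the days was called for either effect (adjusted p = 0.512 and 0.108). In Y/T dKD+FGF2 it remained 1.77-fold above Ctrl+vehicle at d2.5 and 1.45-fold above it at d5.

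Itga7, best known as the laminin receptor subunit of muscle, was at 3.45, 3.16 and 2.62 CPM in d2.5 Ctrl+vehicle, 12.6, 10.2 and 10.95 CPM in Ctrl+FGF2 and 14.9, 12.6 and 11.6 CPM in Y/T dKD+FGF2. The d5 libraries were at 2.41, 2.66 and 3.14 CPM, 6.34, 9.19 and 6.91 CPM, and 7.22, 6.89 and 7.33 CPM. FGF2 raised it 3.60-fold (adjusted p = 6.96e-13) and 2.76-fold (adjusted p = 2.84e-06), while FGF2-treated libraries with and without the knockdown overlapped on both days (adjusted p = 0.188 and 0.724). The partner of Itga6 in epithelial hemidesmosomes, Itgb4, was low. It was at 1.31, 0.83 and 1.26 CPM in d5 Ctrl+vehicle, 2.75, 1.71 and 2.96 CPM in Ctrl+FGF2 and 1.87, 1.25 and 2.04 CPM in Y/T dKD+FGF2. Its rise of 2.20-fold with FGF2 at d5 (adjusted p = 0.00399) was between groups that did not overlap, and no other contrast within a day was called.

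**Figure D2:**
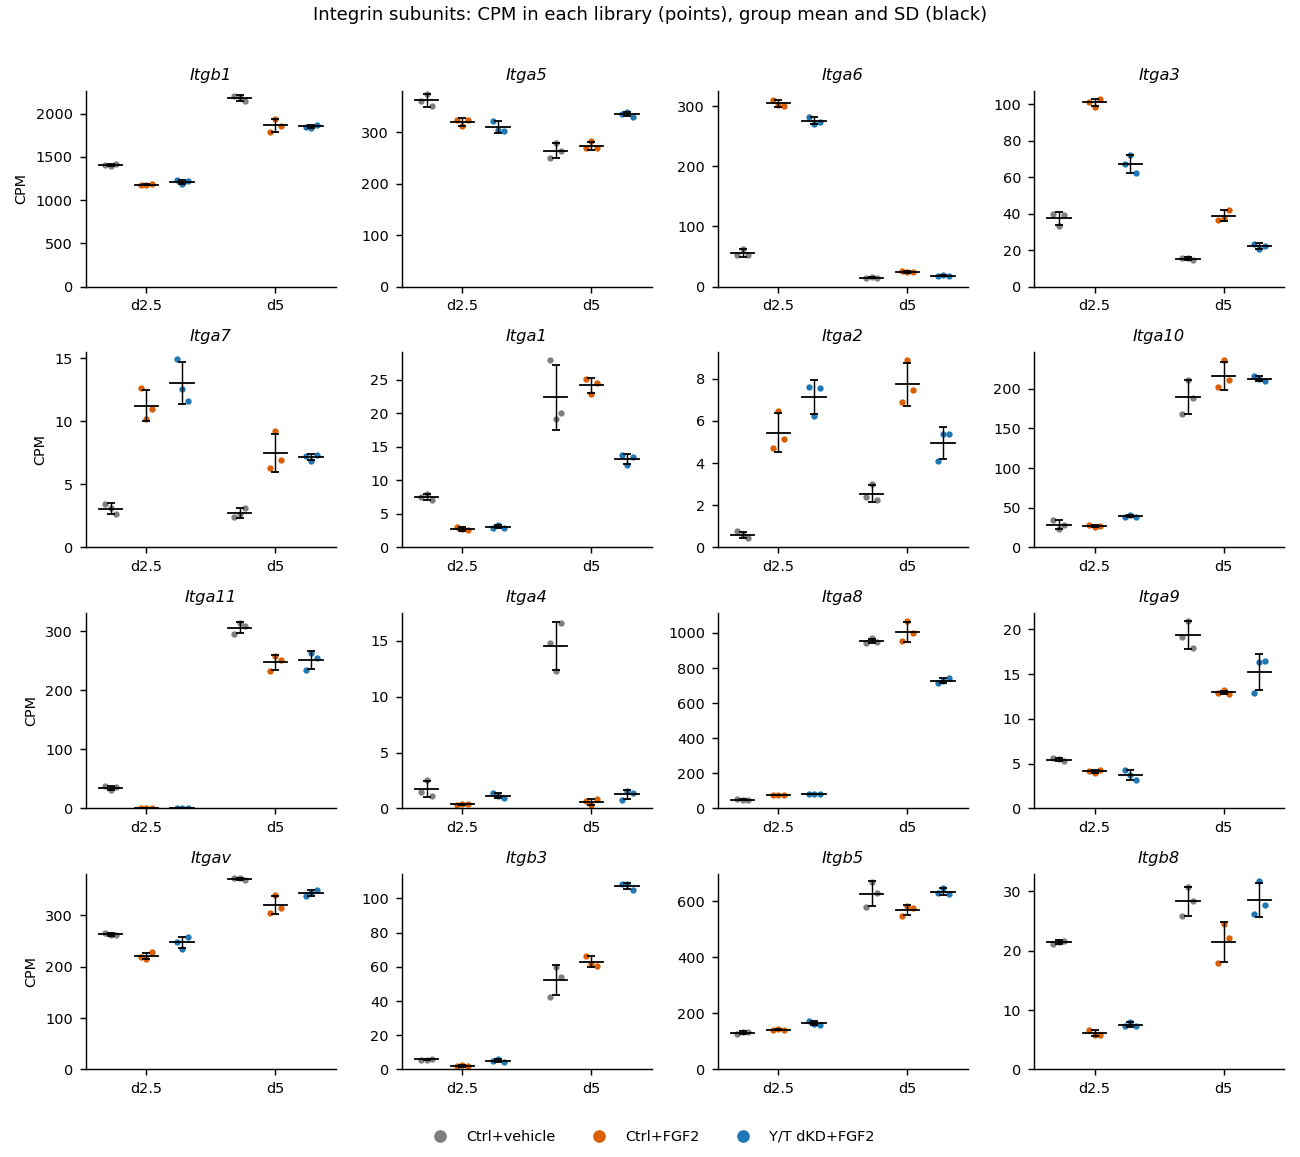
CPM of 16 integrin subunits in each library (points: grey Ctrl+vehicle, orange Ctrl+FGF2, blue Y/T dKD+FGF2), with the group mean and SD in black, d2.5 on the left and d5 on the right of each panel, all axes starting at 0. Itga6 rose from a mean of 55.6 to 305 CPM with FGF2 at d2.5, and Itga4 fell from 14.6 to 0.59 CPM at d5.

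Among the partners for fibronectin and related ligands, the abundant Itga5 moved little and the rare Itga4 moved far. Itga5, the classical fibronectin receptor subunit, had group means between 264 and 362 CPM. It fell 1.14-fold with FGF2 at d2.5 (adjusted p = 1.10e-05) and rose 1.22-fold with the knockdown at d5, from 269, 282 and 269 CPM to 335, 338 and 330 CPM (adjusted p = 2.62e-05). Itga8, which pairs only with β1 and binds nephronectin, was at 52.8, 50.03 and 49.8 CPM in d2.5 Ctrl+vehicle, 76.4, 74.5 and 76.1 CPM in Ctrl+FGF2 and 82.9, 82.7 and 82.0 CPM in Y/T dKD+FGF2. It rose 1.48-fold with FGF2 (adjusted p = 1.70e-12). The difference of 1.08-fold between the knockdown and Ctrl+FGF2 (adjusted p = 0.0441) was lost without any 1 of the 6 libraries compared (adjusted p up to 0.136).

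At d5 Itga8 was at 944, 969 and 950 CPM in Ctrl+vehicle, 955, 1066 and 998 CPM in Ctrl+FGF2 and 715, 726 and 742 CPM in Y/T dKD+FGF2. The knockdown libraries were below both other groups, 1.39-fold under Ctrl+FGF2 (adjusted p = 4.11e-08) and 1.31-fold under Ctrl+vehicle (adjusted p = 3.47e-07). The FGF2 effect was not called (log2 fold change 0.09 ± 0.04, adjusted p = 0.0631). The knockdown effects of the 2 days differed by -0.59 ± 0.06 log2 units (adjusted p = 4.47e-09).

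Itga4, which pairs with β1 or β7 and binds Vcam1 and fibronectin, was at 14.8, 12.3 and 16.6 CPM in d5 Ctrl+vehicle, 0.64, 0.33 and 0.81 CPM in Ctrl+FGF2 and 0.77, 1.58 and 1.42 CPM in Y/T dKD+FGF2. The vehicle libraries stood far above both FGF2-treated groups. The fall with FGF2 was 24.3-fold (log2 fold change -4.60 ± 0.25, adjusted p = 1.35e-10), against 20 counts in the 3 Ctrl+FGF2 libraries. Exons of Cerkl overlap Itga4 on the opposite strand, and with unstranded counts the log2 fold change was -3.72 (adjusted p = 3.65e-10). At d2.5 it was at 1.45, 2.51 and 1.16 CPM, 0.35, 0.36 and 0.40 CPM, and 1.41, 1.09 and 0.95 CPM. The fall was 4.62-fold there (adjusted p = 4.34e-06), and the knockdown raised the gene by 1.59 ± 0.42 on the log2 scale (adjusted p = 0.00548) from 16 counts in Ctrl+FGF2 to 43, a difference for which DESeq2 gave no adjusted p. At d5 the knockdown libraries overlapped Ctrl+FGF2 and the difference of 2.11-fold was not called (adjusted p = 0.0555). Itga9, a receptor subunit for tenascin C and osteopontin, fell 1.33-fold with FGF2 at d2.5 (adjusted p = 0.0125, but 0.0661 with DESeq2) and 1.48-fold at d5 (adjusted p = 0.000188), with group means between 3.76 and 19.4 CPM.

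The αv integrins bind vitronectin, osteopontin and latent TGF-β, and their β partner sets which. Itgav had group means between 221 and 371 CPM and fell 1.20-fold with FGF2 at d2.5 (adjusted p = 8.40e-08) and 1.15-fold at d5 (adjusted p = 0.000377). Itgb3, which with αv binds bone sialoprotein and osteopontin, was at 5.79, 5.80 and 6.25 CPM in d2.5 Ctrl+vehicle, 1.76, 2.84 and 2.14 CPM in Ctrl+FGF2 and 5.13, 5.98 and 4.18 CPM in Y/T dKD+FGF2. The knockdown libraries overlapped Ctrl+vehicle and stood above Ctrl+FGF2. It fell 2.67-fold with FGF2 (adjusted p = 2.63e-08) and rose 2.26-fold with the knockdown (adjusted p = 2.34e-05). The knockdown group differed from Ctrl+vehicle by -0.24 ± 0.15 log2 units (adjusted p = 0.165).

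At d5 Itgb3 was at 42.6, 59.8 and 53.9 CPM in Ctrl+vehicle, 66.6, 61.5 and 60.7 CPM in Ctrl+FGF2 and 109, 108 and 105 CPM in Y/T dKD+FGF2. Every knockdown library was above every other library of that day. The knockdown raised it 1.70-fold over Ctrl+FGF2 (adjusted p = 3.92e-07) and 2.06-fold over Ctrl+vehicle (adjusted p = 6.67e-09). The FGF2 effect, a rise of 1.21-fold at d5 (adjusted p = 0.00941), differed from that at d2.5 by 1.67 ± 0.22 log2 units (adjusted p = 1.36e-07).

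Itgb8, whose product with αv releases TGF-β from its latent complex, was at 21.1, 21.5 and 21.7 CPM in d2.5 Ctrl+vehicle, 6.68, 5.89 and 5.88 CPM in Ctrl+FGF2 and 7.36, 8.003 and 7.34 CPM in Y/T dKD+FGF2. The fall with FGF2 was 3.51-fold (adjusted p = 6.57e-17). The knockdown libraries were above Ctrl+FGF2 by 1.22-fold, which was not called (adjusted p = 0.0744). At d5 it was at 25.9, 30.8 and 28.3 CPM, 17.9, 24.5 and 22.2 CPM, and 26.2, 31.7 and 27.7 CPM. Ctrl+FGF2 was below both other groups without overlap. The fall with FGF2 was 1.30-fold (adjusted p = 0.00511) and the rise with the knockdown 1.32-fold (adjusted p = 0.00634), lost without Y/T dKD+FGF2 replicate 2 (adjusted p = 0.0562).

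Itgb5, the vitronectin receptor partner of αv, was the second most abundant β subunit per length, with group means between 131 and 166 CPM at d2.5 and between 570 and 635 CPM at d5. Its changes were at most 1.25-fold within a day. Itgb6, an epithelial partner of αv, was at 0 in every library, which allows a level of up to 0.013 CPM (3 counts over the 18 libraries, counting error only). Per length, β1 made up between 69.5% and 89.7% of the β subunits that pair with αv, β5 between 9.58% and 27.4%, β3 at most 2.78% and β8 at most 0.503%.

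The subunits of leukocyte integrins were near 0. Itgb2 and its partners Itgal, Itgam, Itgax and Itgad, with Itgae, the epithelial-homing partner of β7, had at most 12 counts in a library and were not tested. Leukocyte markers (8 genes) summed to between 1.87 and 5.80 CPM, and the leukocyte marker Tyrobp was at 0 in every group. Most of the sum was Csf1r and Cd68. Csf1r fell 5.94-fold with FGF2 at d2.5 (adjusted p = 7.42e-06), and Cd68 rose 2.10-fold with the knockdown at d5 (adjusted p = 0.00197). The part of these markers in the integrin levels was not tested. The exception among the leukocyte integrin subunits was Itgb7, at 5.10, 3.55 and 3.24 CPM in d2.5 Ctrl+vehicle, 10.2, 10.5 and 12.2 CPM in Ctrl+FGF2 and 7.86, 8.47 and 8.76 CPM in Y/T dKD+FGF2. The 3 groups did not overlap. It rose 2.73-fold with FGF2 (adjusted p = 8.76e-11) and fell 1.32-fold with the knockdown (adjusted p = 0.0157), lost without Ctrl+FGF2 replicate 3 (adjusted p = 0.111) or Y/T dKD+FGF2 replicate 1 (adjusted p = 0.0713). No contrast at d5 was called, with group means between 2.01 and 2.74 CPM.

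Itga2b, the platelet subunit that pairs with β3, was at 6.28, 4.96 and 5.87 CPM in d2.5 Ctrl+vehicle, 3.10, 2.40 and 1.60 CPM in Ctrl+FGF2 and 2.40, 1.40 and 1.66 CPM in Y/T dKD+FGF2. It fell 2.43-fold with FGF2 at d2.5 (adjusted p = 6.98e-07). At d5 it was at 3.62, 3.08 and 2.15 CPM, 4.68, 4.64 and 4.85 CPM, and 3.40, 3.24 and 4.17 CPM, a rise of 1.62-fold (adjusted p = 0.00546). The vehicle libraries were the highest at d2.5 and Ctrl+FGF2 the highest at d5. Megakaryocyte and platelet markers (4 genes) summed to between 3.65 and 4.71 CPM in d2.5 Ctrl+vehicle and to at most 1.32 CPM elsewhere. The defining platelet markers Gp1ba and Gp9 were at 0 in every group. Most of the d2.5 Ctrl+vehicle sum was Ppbp, which had a mean of 4.16 CPM there and 0.14 CPM in Ctrl+FGF2 (adjusted p = 1.78e-13). The part of these markers in the level of Itga2b was not tested.

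Laminin α chains shifted from α4 and α2 towards α5 with FGF2. Lama5, the α chain of laminins with strong integrin binding, was at 48.5, 46.0 and 50.6 CPM in d2.5 Ctrl+vehicle, 97.3, 93.9 and 96.0 CPM in Ctrl+FGF2 and 76.9, 94.2 and 85.8 CPM in Y/T dKD+FGF2. The knockdown group overlapped Ctrl+FGF2 there. FGF2 raised Lama5 1.97-fold (adjusted p = 5.67e-16), and the fall of 1.12-fold with the knockdown (adjusted p = 0.0184) was lost without replicate 1 or 3 of either group (adjusted p up to 0.200).

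At d5 Lama5 was at 27.0, 32.1 and 32.2 CPM in Ctrl+vehicle, 98.0, 107 and 109 CPM in Ctrl+FGF2 and 48.8, 57.6 and 49.9 CPM in Y/T dKD+FGF2. The 3 groups did not overlap, and the knockdown group lay between the others. FGF2 raised it 3.46-fold (log2 fold change 1.79 ± 0.07, adjusted p = 3.74e-12), and the knockdown lowered it 2.02-fold (log2 fold change -1.01 ± 0.07, adjusted p = 3.34e-09). It remained 1.72-fold above Ctrl+vehicle (adjusted p = 3.66e-07). The knockdown effects of the 2 days differed by -0.85 ± 0.09 log2 units (adjusted p = 6.37e-08).

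Lama4, the α chain of mesenchymal and vascular basement membranes, was at 28.0, 23.1 and 24.1 CPM in d2.5 Ctrl+vehicle, 2.11, 1.75 and 2.20 CPM in Ctrl+FGF2 and 2.81, 3.11 and 2.29 CPM in Y/T dKD+FGF2. FGF2 lowered it 12.4-fold (log2 fold change -3.63 ± 0.13, adjusted p = 3.66e-21). The knockdown libraries were all above Ctrl+FGF2, by 1.34-fold, which was not called (adjusted p = 0.151). At d5 Lama4 was at 162, 170 and 166 CPM in Ctrl+vehicle, 50.2, 52.6 and 55.7 CPM in Ctrl+FGF2 and 119, 125 and 119 CPM in Y/T dKD+FGF2. The groups again did not overlap, with the knockdown between the others. FGF2 lowered it 3.11-fold (adjusted p = 4.96e-14), and the knockdown raised it 2.28-fold (log2 fold change 1.19 ± 0.05, adjusted p = 5.87e-12). Y/T dKD+FGF2 remained 1.36-fold below Ctrl+vehicle (adjusted p = 1.51e-07).

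Lama2, the α chain best known from muscle and peripheral nerve, was at 8.27, 6.58 and 7.57 CPM in d2.5 Ctrl+vehicle, 0.77, 0.95 and 1.14 CPM in Ctrl+FGF2 and 1.41, 2.10 and 2.21 CPM in Y/T dKD+FGF2. The knockdown libraries lay between the other groups without overlap. It fell 7.81-fold with FGF2 (adjusted p = 3.31e-14) and rose 1.98-fold with the knockdown (adjusted p = 0.00880), lost without Y/T dKD+FGF2 replicate 3 (adjusted p = 0.0592). Its d5 libraries were at 103, 127 and 107 CPM, 56.0, 67.4 and 60.2 CPM, and 68.8, 71.3 and 74.1 CPM. The fall with FGF2 was 1.82-fold (adjusted p = 3.62e-08). The difference of 1.16-fold with the knockdown (adjusted p = 0.0424) was lost without any 1 of the 6 libraries compared except Ctrl+FGF2 replicate 2 (adjusted p up to 0.160). Lama4 and Lama2 are also known from endothelial, Schwann and smooth muscle cells. Endothelial markers (6 genes, Cdh5, Tie1 and Cldn5 at 0 in every group) summed to between 2.78 and 3.87 CPM in d2.5 Ctrl+vehicle, at most 1.65 CPM in the other d2.5 groups and at most 1.93 CPM at d5. The whole sum in d2.5 Ctrl+vehicle was Pecam1. It fell 2.92-fold with FGF2 at d2.5 (adjusted p = 1.32e-06) and rose 2.63-fold at d5 (adjusted p = 0.00186). Schwann cell markers (4 genes) summed to between 5.74 and 6.10 CPM in d2.5 Ctrl+vehicle, at most 3.42 CPM in the other d2.5 groups and at most 8.30 CPM at d5. Smooth muscle markers (4 genes) summed to between 167 and 230 CPM in d2.5 Ctrl+vehicle, at most 23.6 CPM in the other d2.5 groups and between 2030 and 3067 CPM at d5. Most of that sum was Acta2, with a mean of 187 CPM in d2.5 Ctrl+vehicle and means between 2004 and 2798 CPM at d5. Myh11 and Cnn1 had group means of at most 0.54 and 1.47 CPM. The part of these cell types in the laminin levels was not tested.

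Lama3, the α chain of epithelial laminin-332, had group means between 2.82 and 3.93 CPM at d2.5 and between 18.6 and 21.1 CPM at d5, and neither the FGF2 nor the knockdown effect was called on either day. Y/T dKD+FGF2 was 1.40-fold above Ctrl+vehicle at d2.5 (adjusted p = 0.0305), lost without any 1 of 4 libraries, replicates 1 and 2 of Ctrl+vehicle and 2 and 3 of Y/T dKD+FGF2 (adjusted p up to 0.164). Lama1, the chain of the earliest embryonic basement membranes, was at 0 in every library.

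**Figure D3:**
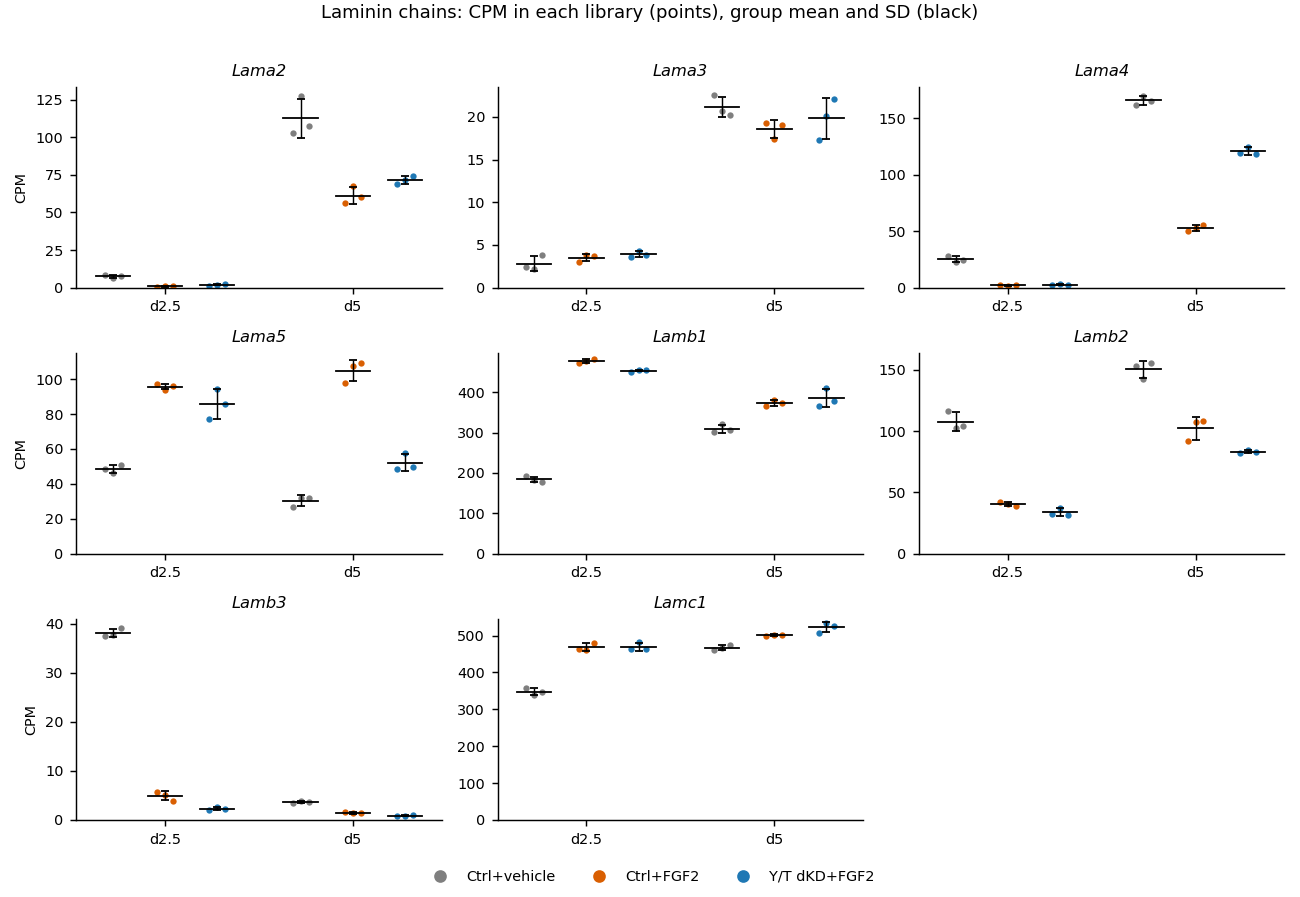
CPM of 8 laminin chains in each library (points: grey Ctrl+vehicle, orange Ctrl+FGF2, blue Y/T dKD+FGF2), with the group mean and SD in black, d2.5 on the left and d5 on the right of each panel, all axes starting at 0. At d5, Lama4 and Lama5 show the knockdown group between the others, at 121 and 52.1 CPM on average.

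Among β chains, Lamb1, the β chain of most mesenchymal laminins, was at 191, 182 and 179 CPM in d2.5 Ctrl+vehicle, 471, 477 and 482 CPM in Ctrl+FGF2 and 451, 455 and 455 CPM in Y/T dKD+FGF2. It rose 2.57-fold with FGF2 (adjusted p = 9.91e-26). The knockdown libraries were all slightly below Ctrl+FGF2, by 1.06-fold, which was not called (adjusted p = 0.0529). At d5 the rise was 1.22-fold, from 301, 321 and 307 CPM to 365, 381 and 373 CPM (adjusted p = 2.27e-05), and the knockdown libraries, at 366, 409 and 379 CPM, overlapped Ctrl+FGF2.

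Lamb2, the β chain of synaptic, muscle and vascular laminins, moved against Lamb1. It was at 116, 103 and 104 CPM in d2.5 Ctrl+vehicle, 42.3, 40.8 and 38.9 CPM in Ctrl+FGF2 and 32.4, 37.4 and 31.6 CPM in Y/T dKD+FGF2. At d5 it was at 153, 142 and 156 CPM, 91.6, 107 and 108 CPM, and 82.3, 84.3 and 82.9 CPM. FGF2 lowered it 2.67-fold (adjusted p = 4.74e-20) and 1.45-fold (adjusted p = 4.73e-07), and the knockdown lowered it further, 1.21-fold (adjusted p = 0.00342) and 1.24-fold (adjusted p = 0.000616). No 2 groups of a day overlapped.

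Lamb3, the β chain of laminin-332, was at 37.6, 37.8 and 39.1 CPM in d2.5 Ctrl+vehicle, 5.77, 5.16 and 3.87 CPM in Ctrl+FGF2 and 1.99, 2.64 and 2.29 CPM in Y/T dKD+FGF2. FGF2 lowered it 7.80-fold (adjusted p = 4.61e-22) and the knockdown a further 2.14-fold (adjusted p = 3.74e-05), so that it stood 16.7-fold below Ctrl+vehicle (adjusted p = 1.96e-23). At d5 it was at 3.42, 3.91 and 3.68 CPM, 1.56, 1.30 and 1.35 CPM, and 0.77, 0.75 and 1.02 CPM, with a fall of 2.60-fold for FGF2 (adjusted p = 2.63e-05) and a difference of 1.68-fold for the knockdown that was not called (adjusted p = 0.0726). Epithelial markers (6 genes) summed to between 4.40 and 5.61 CPM in d2.5 Ctrl+vehicle and to at most 2.40 CPM elsewhere, with Esrp1 at 0 in every group. Most of the d2.5 Ctrl+vehicle sum was Krt14, which had a mean of 4.39 CPM there and 0.14 CPM in Ctrl+FGF2. Epcam went the other way at d2.5, from 0.26 to 1.13 CPM with FGF2 (adjusted p = 6.41e-05), and was at 1.58 CPM in Y/T dKD+FGF2. The part of these markers in the level of Lamb3 was not tested.

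Among γ chains, Lamc1, the γ chain common to most laminins, was at 358, 340 and 347 CPM in d2.5 Ctrl+vehicle and 463, 461 and 481 CPM in Ctrl+FGF2, a rise of 1.33-fold (adjusted p = 6.84e-13). At d5 the rise was 1.08-fold (adjusted p = 0.00873), and the knockdown effect was not called on either day. Lamc3 had group means of at most 0.75 CPM and was not tested.

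Levels were set side by side per kilobase of exon to see how each set of chains was made up. In vehicle-treated cells of d2.5, Lama5 made up 60.4% ± 1.8 (SD, n = 3) of α chain mRNA, a share that was 93.8% ± 0.54 with FGF2 and 91.4% ± 0.27 with FGF2 and the knockdown. The same shares at d5 were 10.6% ± 0.75, 48.3% ± 0.48 and 22.0% ± 1.2. The share of Lama4 was 29.5% ± 2.1, 1.87% ± 0.20 and 2.77% ± 0.42 at d2.5 and 54.4% ± 1.4, 23.0% ± 0.60 and 48.2% ± 1.1 at d5.

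The leading α chain was thus Lama5 in every d2.5 group and in d5 Ctrl+FGF2, and Lama4 in the other d5 groups. With the length of the longest transcript in place of all exons, Lama5 and Lama4 were close in d2.5 Ctrl+vehicle (45.1% ± 2.1 and 43.9% ± 2.4) and in d5 Ctrl+FGF2 (35.3% ± 0.36 and 33.5% ± 0.95), so the lead in those 2 groups depends on the length used. Among β chains, the share of Lamb1 per kilobase of exon in the same order of groups was 44.2% ± 0.58, 86.6% ± 0.79 and 88.6% ± 0.93 at d2.5, and 55.3% ± 1.9, 68.8% ± 1.6 and 73.7% ± 0.87 at d5. These shares also depend on the length used, since all exons of Lamb1 cover 9917 bases and its longest transcript 5784, against 6082 and 5629 for Lamb2.

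Among the α partners of β1, Itga5 had the largest share at d2.5, at 55.7% ± 1.4 in Ctrl+vehicle and 41.7% ± 0.22 in Ctrl+FGF2, and Itga8 at d5, at 40.0% ± 0.80, 41.9% ± 0.20 and 33.1% ± 0.42 in the 3 groups. The share of Itga6 went from 4.68% ± 0.54 in d2.5 Ctrl+vehicle to 21.8% ± 0.42 in Ctrl+FGF2 and was below 1% in every d5 group. Itga11 went from 5.18% ± 0.50 to 0.062% ± 0.019 at d2.5 and was between 14.8% and 18.4% at d5. All exons of Itga6 cover 9025 bases and its longest transcript 4310, against 4933 and 4415 for Itga5. The share of Itga6, and the size of the lead of Itga5 over it, therefore depend on the length used. These shares are descriptions of mRNA and carry no test.

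**Figure D4:**
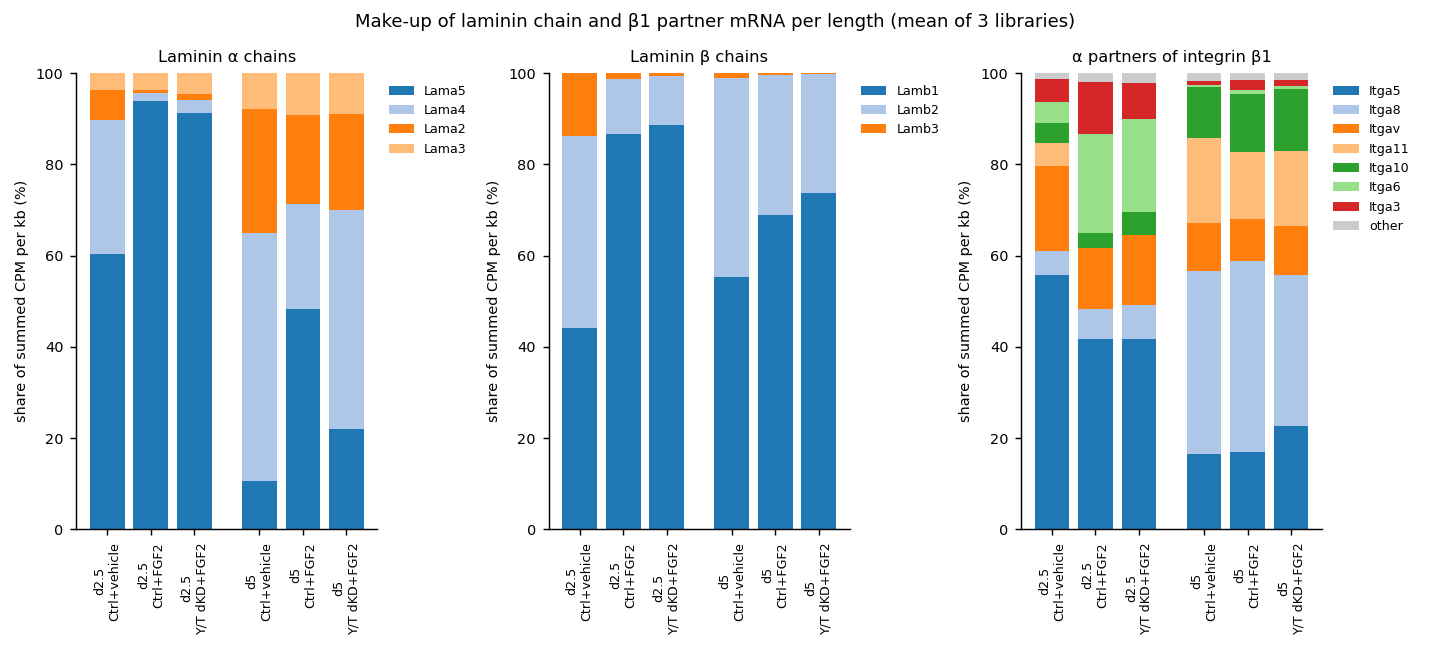
Share of the summed CPM per kilobase of exon (%, mean of 3 libraries) taken by each laminin α chain, laminin β chain and α partner of integrin β1, by group; members under 2% in every group are pooled as other. Lama5 filled 93.8% of the α chains in d2.5 Ctrl+FGF2 and 10.6% in d5 Ctrl+vehicle.

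Genes around these receptors were counted from 3 lists, with values for those called at 2-fold or more. The share of all genes called in the same direction stands in parentheses after each count. Of the adhesion machinery that couples integrins to actin (talins, kindlins, focal adhesion kinases and adaptors), 30 of 33 genes were tested at d2.5, where 9 rose (33.5% of all genes did) and 14 fell (34.1%) with FGF2. The median log2 fold change was -0.15, against 0.00 over all genes. At d5, 19 of 29 rose (23.5% of all genes) and 5 fell (23.7%), with a median of 0.26 against 0.02. With the knockdown, 3 rose (10.8%) and 11 fell (13.6%) at d2.5 (median -0.11), and 6 rose (15.6%) and 11 fell (16.1%) at d5 (median -0.06), against 0.00 over all genes on both days. Nedd9, a docking protein at focal adhesions, fell by 3.25 on the log2 scale with FGF2 at d2.5. Lims2, an adaptor of the integrin-linked kinase, fell by 1.25 there and by 1.07 with the knockdown at d5, and Tgfb1i1, the paxillin relative Hic-5, fell by 1.04 with FGF2 at d2.5. Ptk2b, the focal adhesion kinase relative Pyk2, rose by 1.05 with FGF2 at d5 and fell by 1.28 with the knockdown.

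Of 16 partners of laminin in the basement membrane, 5 rose (33.5% of all genes) and 6 fell (34.1%) with FGF2 at d2.5 (12 tested, median -0.22 against 0.00 over all genes), and 5 rose (23.5%) and 4 fell (23.7%) at d5 (13 tested, median 0.02 against 0.02). With the knockdown 1 rose (10.8%) and 4 fell (13.6%) at d2.5 (median -0.05 against 0.00), and 7 rose (15.6%) and 4 fell (16.1%) at d5 (median 0.12 against 0.00). Col18a1, the core of a basement membrane proteoglycan, rose by 1.84 with FGF2 at d2.5. Agrn, agrin, which binds laminin γ1, fell by 1.08 there, and the collagen IV chains Col4a5 and Col4a6 each fell by 1.29. Ntn1, netrin 1, fell by 1.01 with FGF2 at d5.

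Of 24 other integrin ligands, 20 were tested. With FGF2, 5 rose (33.5% of all genes) and 12 fell (34.1%) at d2.5 (median -0.63 against 0.00 over all genes), and 7 rose (23.5%) and 7 fell (23.7%) at d5 (median -0.04 against 0.02). With the knockdown 4 rose (10.8%) and 7 fell (13.6%) at d2.5 (median -0.04 against 0.00), and 9 rose (15.6%) and 7 fell (16.1%) at d5 (median -0.05 against 0.00). Tnc, tenascin C, a ligand of α9β1, fell by 6.76 on the log2 scale with FGF2 at d2.5. Npnt, nephronectin, the ligand of α8β1, fell by 1.76 with FGF2 at d2.5 and rose by 1.08 at d5. Ibsp, bone sialoprotein, a ligand of αvβ3, fell by 2.34 and 1.80 with FGF2 at d2.5 and d5 and rose by 2.31 with the knockdown at d5. Tgfbi fell by 2.45 with FGF2 at d2.5 and rose by 1.29 with the knockdown at d5, whereas Thbs1, thrombospondin 1, fell by 2.31 and 1.15 in the same contrasts. Postn (periostin), Emilin1 and Fbln5 fell by 1.96, 1.59 and 1.18 with FGF2 at d2.5. Vcam1, a ligand of α4β1, rose by 1.95 with FGF2 at d2.5. Egfl7 rose by 1.55 at d5, at a low level, from a mean of 0.63 CPM (21 counts in all) to 1.88 CPM (64 counts).

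The FGF2 effect differed between the days for 23 of the 28 members, 13 with a higher and 10 with a lower value at d5 (31.8% and 29.1% of 14198 genes), and for 17 by at least 1.5-fold (35.1%). The knockdown effect differed for 9, 3 higher and 6 lower at d5 (11.6% and 9.35%), and for 6 by at least 1.5-fold (6.01%). Lama4 and Lama5 moved in opposite directions with the knockdown at d5, and for each the effect was larger there than at d2.5, by 0.76 ± 0.21 log2 units for Lama4 (adjusted p = 0.00938) and by -0.85 ± 0.09 for Lama5. Since each day is also a batch, these differences cannot be told apart from one of batch.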

How the data were processed

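Raw counts per gene, without normalization, were deposited by the authors for each of the 18 RNA-seq libraries. The submitters' processing notes name FastQC, STAR, Picard, featureCounts and mm10, and the annotation is not given in the sources used here. Counts on the reverse strand, between 96.0% and 96.6% of a library's stranded counts, were analysed. Rows that name no gene (unmapped, multiply mapped, outside genes or ambiguous reads, 27.0% to 34.4% of a library) were left out. Of 55335 identifiers, 55154 matched GENCODE M21 (GRCm38), which gave symbols, biotypes and exon lengths.

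The test was the quasi-likelihood F test of edgeR 4.0.16 (R 4.3.3) with TMM factors and filterByExpr, in 1 fit of the 9 libraries of each day and, for differences between days, 1 fit of all 18. A gene is called where its p, adjusted over all genes tested (Benjamini-Hochberg), was under 0.05. SEs were derived from the F statistic. The script was tested on simulated data. Values of every library are given for members with a group mean of at least 2 CPM and a called change of at least 1.5-fold within a day, but for Itgb4 at d5 only and for Itgb7 at d2.5 only. For Itgb1, Itga5 and Lamc1, added after their values were seen, they are given in some groups only. The values of 1 tested member are not reported here, though counts of members include it. The members and lists were chosen with earlier results of these data known. Alternatives were DESeq2 1.42.0, RLE and upper-quartile factors, other filters on low counts, unstranded counts, a replicate block, other sets of libraries, leaving out each library, stricter thresholds and the length of the longest transcript.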

Additional observations from a re-analysis of the deposited data

Results flagged for a closer look

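Each value here is an effect at d5 minus the same effect at d2.5, on the log2 scale, for members reported here in which the test of that difference was called. For FGF2, the effect was higher at d5 for Itga11 (5.82), Lama2 (2.07), Lama4 (1.97), Itga2b (1.95), Itgb3 (1.67), Lamb3 (1.56), Itga1 (1.55), Itgb8 (1.40), Itgb4 (0.86), Lamb2 (0.86), Lama5 (0.79), Itga10 (0.29) and Itga5 (0.23). It was lower at d5 for Itga4 (-2.42), Itga6 (-1.74), Itga2 (-1.55), Itgb7 (-1.53), Lamb1 (-1.10), Lama3 (-0.53), Itga8 (-0.50), Lamc1 (-0.33) and Itgb5 (-0.26). For the knockdown under FGF2, the effect was higher at d5 for Itgb7 (0.85), Lama4 (0.76) and Itga5 (0.34), and lower for Itga2 (-1.04), Itga1 (-1.03), Lama5 (-0.85), Itga8 (-0.59), Itga10 (-0.58) and Itga6 (-0.30). The days are also batches, and the part of batch cannot be told apart. The differences for Itga10, Itgb4 and Lama3 (FGF2) and for Itga6 and Itgb7 (knockdown) were no longer called without 1 library, with an adjusted p of up to 0.302 for Itga10, 0.127 for Itgb4, 0.166 for Lama3, 0.108 for Itga6 and 0.170 for Itgb7. With unstranded counts, the FGF2 difference for Itga4 was -1.24 and no longer called (adjusted p = 0.0566). DESeq2 did not call those for Itga10 (adjusted p = 0.129) and Itgb4 (adjusted p = 0.0781). The FGF2 difference was also lost for Itga10 with RLE factors (adjusted p = 0.0623) and for Itgb4 with unstranded counts (adjusted p = 0.0638). For Lama3 it was lost with upper-quartile factors (adjusted p = 0.0813).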

How the results depend on the processing

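No called change of a member reversed under any alternative. DESeq2 called 9 members for the knockdown at d2.5 in place of 14 and gave no adjusted p for Itga4, and a required change of 1.5-fold left 5. That requirement left 11 of 22 for FGF2 at d5, 6 of 13 for the knockdown at d5 and 9 of 21 for the knockdown group against vehicle at d5. Of the 152 called changes, 10 of the 151 to which DESeq2 gave an adjusted p fell below the threshold there, 2 with RLE factors, 5 with upper-quartile factors, 2 without the filter and 4 with unstranded counts. A fit of all 18 libraries lost 3 of 120, and fits of only the compared groups lost 0 of 120. With upper-quartile factors the median of all genes was 0.12 (log2) for the difference of the FGF2 effect between days, and it was within 0.05 of 0 elsewhere. With at least 10 counts in every library, Itga4, Itga11, Itga2 and Lamb3 could not be tested in some contrasts. Leaving out 1 library gave between 24 and 26 calls for FGF2 and between 10 and 13 for the knockdown at d2.5, between 20 and 22 and between 10 and 15 at d5, between 23 and 26 and between 18 and 21 for the knockdown group against vehicle on the 2 days, and between 20 and 23 and between 7 and 9 for the differences between days. Deviations of same-numbered libraries had correlations between -0.093 and 0.054 at d2.5. At d5 these were between -0.083 and 0.21, highest between Ctrl+vehicle and Ctrl+FGF2, so a part shared by replicate number may exist there. A fit with a replicate block called 12 members for the knockdown at d2.5 and 14 at d5, with 2 of the 152 changes lost, those of Itga8 and Itga2 for the knockdown at d2.5. Depth limits Itga4, Itga11, Itga2, Itgb4, Lama2 and Lamb3, which had under 50 counts over 3 libraries in some groups.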
